A study of Mus musculus with 11 samples.

Results

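The cultures described here are B10.BR T cells that had been kept for 4 days with C57BL/6 dendritic cells from the organ abbreviated MLN or from the organ abbreviated PLN. They were chosen by their labels alone and comprise 6 of the 11 arrays of the series, 3 with MLN and 3 with PLN dendritic cells, with the replicate numbers 2, 3 and 4 in each. The other 5 arrays hold the same T cells with dendritic cells from liver (numbers 2, 3 and 4) or spleen (numbers 3 and 4). T cell strain, dendritic cell strain and time were the same in all groups, so the 2 groups differ by the source organ of the dendritic cells. The labels give no T cells without dendritic cells, no age, sex or genotype beyond the strain, and no purification of either cell type, and they do not spell out MLN and PLN, which customarily stand for mesenteric and peripheral lymph nodes. The labels also do not say that arrays of 1 group come from separate cultures or animals, so the p-values below speak only of the scatter among these arrays, part of which may be technical.

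Dendritic cells present antigen to T cells and also leave an imprint of their own organ on them. In mice, dendritic cells of the lymph nodes that drain the gut make retinoic acid from vitamin A. Retinoic acid induces the gut homing receptors alpha4beta7 integrin and CCR9 on activated T cells and restrains the making of selectin ligands and of the cytokine IL-17A. T cells activated in skin-draining nodes instead acquire fucosylated selectin ligands, which let them roll on inflamed skin vessels. B10.BR and C57BL/6 mice carry different histocompatibility haplotypes, so the T cells here meet foreign histocompatibility molecules.

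RNA was measured on single-color mouse oligonucleotide arrays, and each value below is log2(intensity + 16) after quantile normalization. A level can be set against the same gene on another array, not against another gene, and a difference is MLN minus PLN on the log2 scale, taken within each replicate number and averaged over the 3 numbers. Of 12393 named genes, the 7436 in the upper 60% by mean level over all 11 arrays were tested with limma, with the replicate number as a block and Benjamini-Hochberg adjustment at 0.05 over all of them. Median intensities were 144.3 to 157.5 on the MLN arrays and 150.4 to 167 on the PLN arrays. The fourth MLN array was the dimmest and the fourth PLN array the brightest of these 6, with 16.5% and 13.3% of probe sets under an intensity of 16. The ratio of 3' to 5' actin signal, a sign of RNA integrity, was 1.11 to 1.15 in both groups. The number of arrays limits the precision of all values.

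The T cell receptor component Cd3e was high in both groups, at 11.03 on average with MLN and 10.88 with PLN dendritic cells. Summed intensities of 7 measured T cell markers were 16982 to 23477 with MLN and 18483 to 21293 with PLN. Transcripts of antigen-presenting cells were also present, and the summed intensity of 12 dendritic cell markers was 6860 to 11207 with MLN and 7099 to 10590 with PLN. In such mixed RNA, fewer cells of a type and less RNA per cell cannot be told apart. None of the 11 lists of cell type markers held a gene that passed the adjusted threshold. The gamma-delta T cell, granulocyte and red cell lists had no tested gene, so none of theirs could pass. The mast cell and basophil list had 1 tested gene, and the NK and stromal cell lists 2 each. Of 10 tested dendritic cell markers 6 were higher and 4 lower with MLN. The chemokine gene Ccl17 and the integrin gene Itgax, 2 of the 10, were higher at an unadjusted p under 0.05. The share over all tested genes was 2.88%. Ccl17 differed by 0.52 (adjusted p = 0.669), Itgax by 0.42 (0.704) and the chemokine gene Ccl22 by 0.43 (0.883), each higher in all 3 numbers. Of the tested markers, 4 were higher in all 3 numbers and 3 were lower in all 3, among the latter Cd74 (difference -0.20). Over all tested genes, 14.2% were higher and 13% lower in all 3 numbers. The part of the dendritic cell transcripts in the results below was not tested. Of the NK cell markers 2 were tested, Klrk1 and Eomes, which activated CD8 T cells also express. Both were lower with MLN, at an unadjusted limma p of 0.00165 and 0.032, against 3.08% of all tested genes lower under 0.05. Below the tested range, the NK-defining Ncr1 averaged 6.11 with MLN and 6.29 with PLN. Klra8, also below it, went the other way, at 5.85 with MLN and 5.43 with PLN.

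With MLN dendritic cells the T cell cultures had less RNA of the semaphorins Sema4a and Sema4f, their plexin relative Plxnc1, lamin A/C (Lmna), the selectin ligand enzyme Fut7, the cytokine Il17a, the NKG2A receptor gene Klrc1, the prion protein gene Prnp and the scaffold gene Mpp2. They had more RNA of Lztfl1 and of the repressor gene Hic1. These 11 genes, 9 lower and 2 higher, were 0.148% of the genes tested; 0.121% were called lower and 0.0269% higher. All 11 moved the same way within each of the 3 numbers, as did 27.2% of all tested genes. In 8 of the 11 the 3 MLN and the 3 PLN values did not overlap, against 4.2% of all tested genes. The median difference over all tested genes was 0.0017, and 443 genes (5.96%) had an unadjusted p under 0.05, 214 higher (2.88%) and 229 lower (3.08%).

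**Figure D1:**
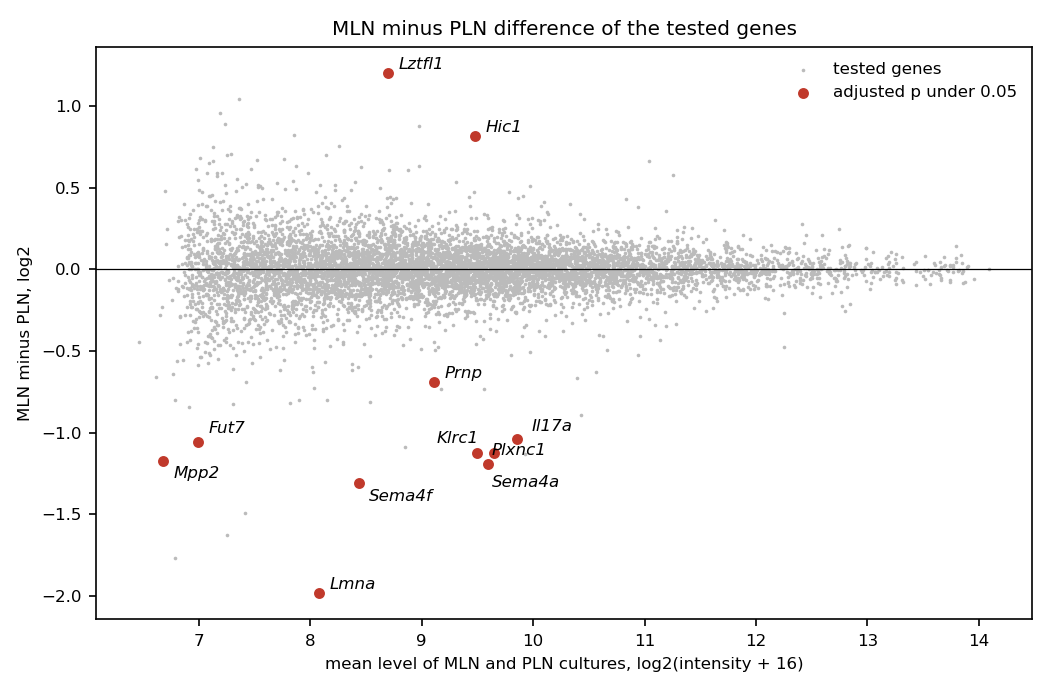
Each point is 1 of 7436 tested genes, with its mean level in the MLN and PLN cultures, as log2(intensity + 16), on the horizontal axis and its MLN minus PLN difference (log2) on the vertical axis. The 11 genes past the threshold are red and labelled, from Lmna at -1.98 to Lztfl1 at 1.20.

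The replicate number carries much of the variation of these cultures, and the calls rest on comparing arrays within a number. Without the number in the fit, Lmna alone passed (0.0134% of the tested genes; adjusted p = 0.0193), and 95 genes (1.28%) had an unadjusted p under 0.05. The other 10 genes then had adjusted p-values from 0.136 (Plxnc1) to 1, with the same differences. The within-number differences had SDs over all tested genes of 0.241, 0.239 and 0.287 for numbers 2, 3 and 4. Across genes, which are not independent replicates, the differences of numbers 2 and 3 correlated at 0.20, those of 2 and 4 at 0.083 and those of 3 and 4 at 0.082.

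Promoters of 5 of the 11 genes are shown, a single window for each, because retinoic acid receptors bind pairs of the half-site AGGTCA or GGGTCA. All windows shown but that of Sema4a hold a half-site, so they do not represent the 18 promoters of the called genes. The sequences are from RefSeq on build GRCm38.p6, 250 bases before to 50 bases after a transcription start, 5' to 3' on the strand of the gene, and capitals mark a half-site on either strand (AGGTCA or GGGTCA, or TGACCT or TGACCC on the other). The 2 motifs differ in their first base, so neither is counted where the other is.
Lmna, chr3:88493263-88493562, minus strand: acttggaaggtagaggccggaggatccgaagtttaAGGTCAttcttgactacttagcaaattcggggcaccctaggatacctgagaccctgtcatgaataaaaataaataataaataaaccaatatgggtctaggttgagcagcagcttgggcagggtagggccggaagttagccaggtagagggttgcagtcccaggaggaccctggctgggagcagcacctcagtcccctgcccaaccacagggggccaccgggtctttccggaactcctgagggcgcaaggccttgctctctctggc
Sema4a, chr3:88461133-88461432, minus strand: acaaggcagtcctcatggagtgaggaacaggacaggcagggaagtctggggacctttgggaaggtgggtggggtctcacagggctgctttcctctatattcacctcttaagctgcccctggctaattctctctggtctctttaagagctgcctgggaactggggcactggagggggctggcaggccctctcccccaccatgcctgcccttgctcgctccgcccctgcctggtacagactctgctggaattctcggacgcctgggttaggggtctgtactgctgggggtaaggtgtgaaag
Fut7, chr2:25423444-25423743, plus strand: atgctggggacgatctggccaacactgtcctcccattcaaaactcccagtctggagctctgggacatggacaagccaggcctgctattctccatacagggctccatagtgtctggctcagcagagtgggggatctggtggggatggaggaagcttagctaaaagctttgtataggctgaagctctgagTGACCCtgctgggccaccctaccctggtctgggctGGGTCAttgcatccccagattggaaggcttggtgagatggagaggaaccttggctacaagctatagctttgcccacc
Il17a, chr1:20730655-20730954, plus strand: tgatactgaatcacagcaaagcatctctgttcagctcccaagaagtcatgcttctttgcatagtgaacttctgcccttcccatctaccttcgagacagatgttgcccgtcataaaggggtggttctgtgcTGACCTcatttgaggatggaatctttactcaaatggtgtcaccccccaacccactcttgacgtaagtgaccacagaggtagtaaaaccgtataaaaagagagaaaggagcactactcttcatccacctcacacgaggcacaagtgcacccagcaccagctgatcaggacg
Hic1, chr11:75170206-75170505, minus strand: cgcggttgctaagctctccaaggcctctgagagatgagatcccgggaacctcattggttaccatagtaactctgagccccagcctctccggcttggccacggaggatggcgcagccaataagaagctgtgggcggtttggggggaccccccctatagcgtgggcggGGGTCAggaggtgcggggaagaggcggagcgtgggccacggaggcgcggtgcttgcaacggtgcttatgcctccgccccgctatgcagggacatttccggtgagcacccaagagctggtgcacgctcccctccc
All 11 genes matched an entry, with 18 promoters between them, of which 6, from 5 genes (Lmna, Fut7, Il17a, Mpp2 and Hic1), held a half-site. The other promoter of Lmna and the other of Fut7, not shown, held none. Of all 32851 mouse promoters of the same length, 27.5% held one. In the Fut7 promoter the 2 half-sites begin 62 and 27 bases before the start. In the Il17a promoter the half-site begins 120 bases before the start, and in that of Hic1 84 bases before it. A match is a description of these letters only. A window without one, such as that of Sema4a, says nothing on the factor.

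Lmna, on chromosome 3, encodes the A-type lamins of the nuclear envelope. It read 7.39, 7.03 and 6.85 in MLN cultures 2, 3 and 4 and 9.03, 9.28 and 8.90 in PLN cultures 2, 3 and 4. All MLN values lay below all PLN values, with the highest MLN value at 7.39 and the lowest PLN value at 8.90. The difference was -1.98 ± 0.14 (SE; adjusted p = 2.87e-05), which is 3.95-fold lower. The call held in all 24 alternatives in which the gene was tested, with differences of -2.15 to -1.67. The other 3 Lmna probe sets, of lower mean level, gave -0.44, 0.49 and -0.05, so the fall rests on 1 probe set. With the mean of all probe sets Lmna was below the tested range, so the alternatives do not examine this disagreement. Of 11 tested genes of the nuclear envelope, Lmna alone was called, 7 were higher and 4 lower, and their median difference was 0.02. The B-type lamin Lmnb1 was at 11.02 with MLN and 10.99 with PLN, and emerin (Emd) at 9.33 in both.

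Semaphorins are membrane-bound or secreted ligands and plexins their receptors. Sema4a, a semaphorin of dendritic cells and of activated T cells in mice, read 8.65, 8.95 and 9.38 with MLN and 9.89, 10.18 and 10.49 with PLN. Every PLN value was above every MLN value, and the 3 within-number gaps were nearly equal, at -1.24, -1.23 and -1.11. The difference was -1.19 ± 0.083 (SE; adjusted p = 2.87e-05), 2.29-fold lower with MLN, and the second Sema4a probe set gave -1.01. Sema4f, a relative studied mainly in neurons, read 7.81, 7.15 and 8.38 with MLN and 9.27, 8.34 and 9.65 with PLN. Its groups overlapped, since the fourth MLN array was just above the third PLN array, yet MLN was lower in each pair. The difference was -1.31 ± 0.12 (SE; adjusted p = 0.000263).

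Plxnc1, the plexin that binds semaphorin 7A, read 9.15, 9.09 and 8.58 with MLN and 10.24, 9.97 and 9.98 with PLN. Every MLN value was below every PLN value, and the difference was -1.12 ± 0.11 (SE; adjusted p = 0.000369). Its other 3 probe sets were also lower with MLN, by -0.67, -0.78 and -0.69. Sema4a, Sema4f and Plxnc1 kept their calls in all 25 alternatives but the fit without the number. Of the 10 tested semaphorins, plexins and neuropilins, 8 were lower and 2 higher, with a median of -0.06. These 3 were called lower, against 0.121% of all tested genes. The list was chosen with earlier results of these data known, so this comparison is no test of the list. Within numbers 2, 3 and 4 the list median was -0.08, 0.02 and -0.36, so number 3 did not share the direction. Other members had small differences, none called. Sema7a, the ligand of Plxnc1, had a difference of -0.04, Sema4d, abundant on T cells, -0.02, and the receptor Nrp1 -0.09.

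Homing genes of the skin and the gut were the next group. Fut7 encodes the fucosyltransferase that completes selectin ligands. It read 6.12, 6.80 and 6.46 with MLN and 7.55, 7.59 and 7.41 with PLN. MLN values were all lower, and near the low end of the measured range. The difference was -1.05 ± 0.17 (SE; adjusted p = 0.0336), 2.08-fold lower. That call held in 11 of 24 alternatives. It was lost in a fit of the 6 MLN and PLN arrays alone (adjusted p = 0.139) and with no filter on low values (0.169). It was also lost without any of the 3 PLN arrays (adjusted p = 0.0689 to 0.254), without MLN array 2 or 4 (0.174 and 0.138), without liver array 2 or 4 (0.0579 and 0.0652) and without any 1 replicate number (0.124 to 0.376).

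Gcnt1, which builds the core glycan that carries those ligands, read 6.41, 7.36 and 7.45 with MLN and 7.17, 8.03 and 8.09 with PLN. MLN was lower in each pair and the groups overlapped, with a difference of -0.69 ± 0.16 (SE; adjusted p = 0.213). Of 13 tested genes in the list of selectin ligands and skin homing, 8 were lower and 5 higher, and the median was -0.07. The 2 called lower were Fut7 and Sema4a, against 0.121% of all tested genes called lower. This list, too, was chosen with earlier results known, and the comparison does not test it. Sema4a is a semaphorin and is also counted in the semaphorin list. Apart from it, Fut7 alone was called. The carrier Selplg (PSGL-1) was at 12.35 and 12.32, and the skin homing receptor Ccr4 at 8.32 and 8.23.

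Of 4 tested gut homing genes, 3 were higher and 1 lower with MLN, with a median of 0.15 and none called. Itga4, the alpha4 chain of alpha4beta7, read 7.70, 7.97 and 7.97 with MLN and 7.4, 6.84 and 6.27 with PLN. All MLN values lay above all PLN values, with within-number gaps of 0.30, 1.13 and 1.70. The difference was 1.04 ± 0.29 (SE) with an adjusted p of 0.476. Its partner Itgb7 differed by 0.19 (95% interval -0.10 to 0.47; adjusted p = 0.940). Ccr9, the receptor for the small intestinal chemokine CCL25, was under the tested range. It read 6.95, 5.44 and 8.80 with MLN and 6.16, 5.35 and 6.60 with PLN. Array MLN 4 stood well above the others, and in a fit of all genes with no filter the Ccr9 difference of 1.02 had an adjusted p of 0.834. The other Ccr9 probe sets, of lower mean level, gave 0.68 and 0.21. Itgae, the alpha chain that binds E-cadherin on epithelium, pointed the other way, at 6.95, 7.04 and 7.22 against 7.58, 7.54 and 7.65 (difference -0.52 ± 0.16 SE; adjusted p = 0.576).

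**Figure D2:**
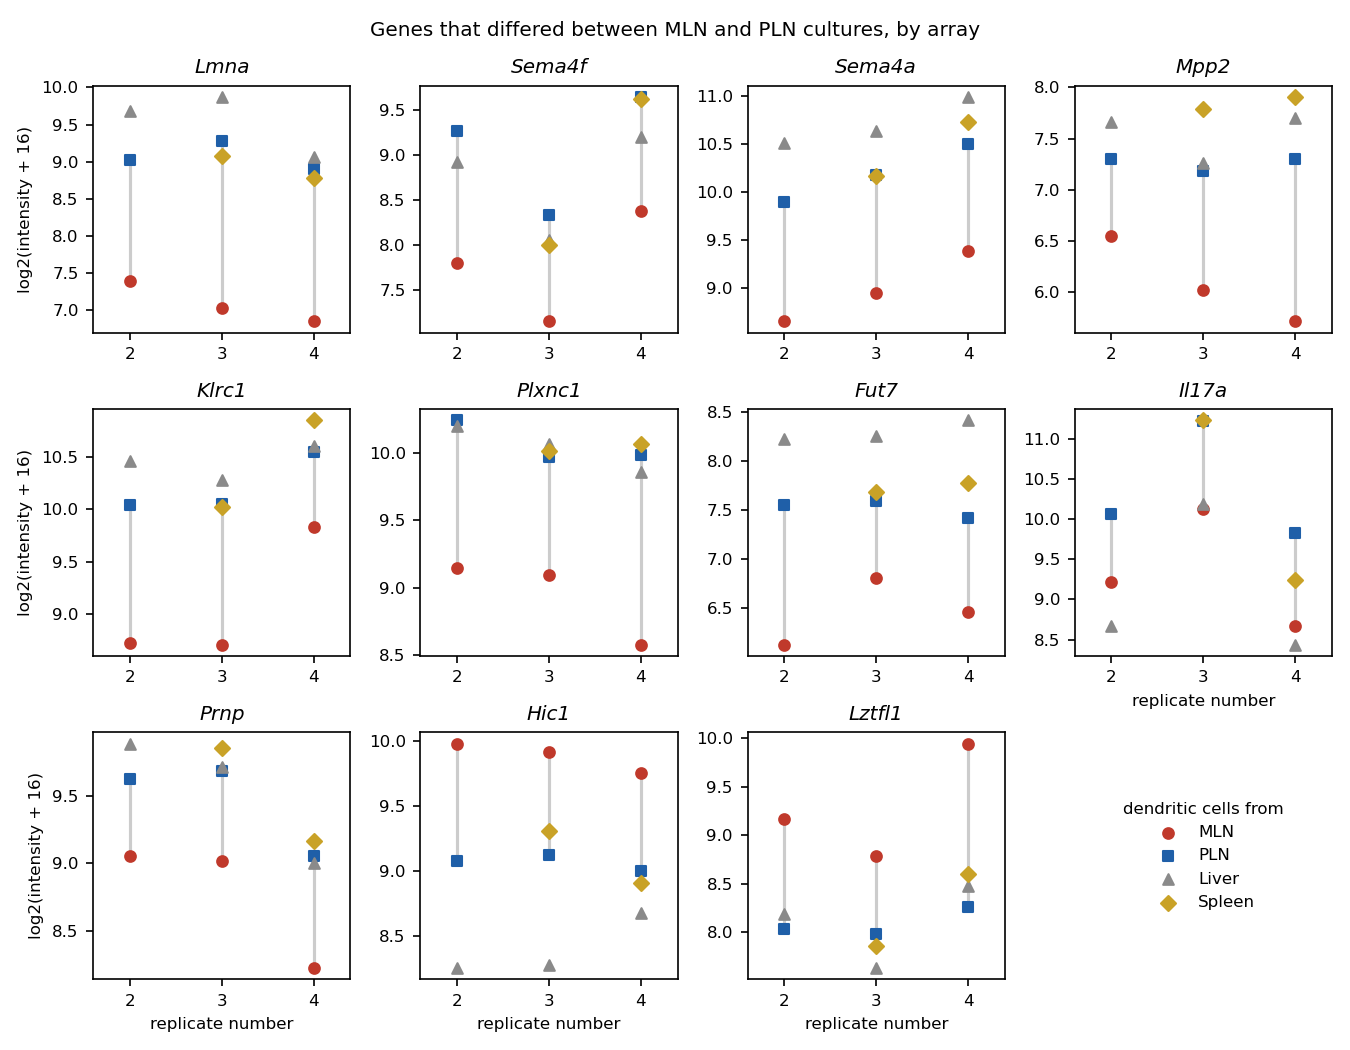
Levels of the 11 called genes, as log2(intensity + 16) on the vertical axis of each panel, by replicate number on the horizontal axis. Grey lines join the MLN (red circles) and PLN (blue squares) cultures of 1 number, and triangles and diamonds are liver and spleen; the vertical scales differ between panels. MLN lies below PLN in every pair of 9 genes and above it in every pair of Hic1 and Lztfl1.

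Genes known to answer retinoic acid came next. Hic1, a transcriptional repressor whose expression in T cells of the mouse gut depends on retinoic acid, read 9.98, 9.92 and 9.75 with MLN and 9.08, 9.13 and 8.998 with PLN. The groups were tight and did not overlap, with SDs of 0.12 and 0.065. The difference was 0.82 ± 0.14 (SE; adjusted p = 0.0476), 1.76-fold higher. Being near the threshold, the call held in 10 of 25 alternatives. It was lost without any 1 of the 6 MLN and PLN arrays (adjusted p = 0.117 to 0.280), without liver array 2 (0.0509) and without number 2, 3 or 4 (0.376, 0.171 and 0.0563). It was also lost with a pseudocount of 1 (0.0533), no filter (0.178), the upper 40% of genes (0.0513) and no variance trend (0.182). Differences over all alternatives were 0.73 to 0.88.

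Lztfl1 encodes a protein that binds the BBSome, a complex of ciliary transport, and has been reported to be induced by retinoic acid in human CD4 T cells. It read 9.17, 8.78 and 9.94 with MLN and 8.04, 7.98 and 8.27 with PLN. All MLN values were higher, array MLN 4 most of all. The difference was 1.20 ± 0.15 (SE; adjusted p = 0.00408), 2.30-fold, and the second probe set gave 0.68. The call was lost without number 2 (adjusted p = 0.0988) and without number 4 (0.158).

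Tgm2, the tissue transglutaminase and a classic retinoic acid target, read 11.23, 12.06 and 11.33 with MLN and 10.60, 11.38 and 10.91 with PLN. It was higher with MLN in each pair, but the difference of 0.58 ± 0.27 (SE) had an adjusted p of 0.840. In a fit of the 6 MLN and PLN arrays alone its adjusted p was 0.0193. Stra6, a receptor for the retinol carrier protein, had a mean too low over the 11 arrays to be tested. It read 7.74, 8.34 and 8.01 with MLN and 7.13, 6.87 and 5.66 with PLN. All MLN values were higher, and in the fit with no filter the difference of 1.47 ± 0.32 (SE) had an adjusted p of 0.364. Of 10 tested genes of the retinoic acid list, 6 were higher and 4 lower, Hic1 was called, and the median was 0.03. The receptor Rara differed by 0.04 and Rxra by -0.28, with Rxra gaps of 0.07, 0.005 and -0.91 within numbers 2, 3 and 4. A second Rxra probe set, of lower mean level, gave -0.79, -0.87 and -1.08.

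Il17a encodes the founding cytokine of type 17 T cells. It read 9.22, 10.13 and 8.66 with MLN and 10.07, 11.23 and 9.83 with PLN. Number 3 was the highest in both groups and the groups overlapped, while MLN was lower within each number. Those gaps were -0.85, -1.10 and -1.16, and the difference was -1.04 ± 0.13 (SE; adjusted p = 0.00408), 2.05-fold lower with MLN. The call was lost without number 4 (adjusted p = 0.0941) and with the number as a random block (0.396). Of 9 tested type 17 genes, 6 were lower and 3 higher, Il17a alone was called, and the median was -0.08. The transcription factors Rora, Stat3 and Ahr differed by -0.09, -0.12 and -0.08.

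Cytokines of other T cell programs did not pass. Interferon gamma (Ifng) read 9.24, 11.15 and 11.40 with MLN and 9.10, 11.10 and 10.56 with PLN, a difference of 0.34 ± 0.18 (SE; adjusted p = 0.873). The anti-inflammatory cytokine gene Il10 read 8.03, 9.45 and 8.94 against 8.67, 9.80 and 10.14. It was lower with MLN in each pair, and the groups overlapped (difference -0.73 ± 0.23 SE; adjusted p = 0.576). Il4, below the tested range, read 6.89, 8.10 and 6.62 with MLN and 6.44, 7.20 and 6.12 with PLN. It was higher with MLN in each pair. In limma's fit with no filter the Il4 difference of 0.62 ± 0.29 (SE) had an adjusted p of 0.858. The master factors Tbx21 and Gata3 differed by 0.20 and 0.23, and Foxp3, also below the tested range, averaged 6.71 with MLN and 6.78 with PLN. Of 17 type 1 genes 10 were higher, of 11 type 2 genes 7, and of 14 regulatory T cell genes 10, with medians of 0.04, 0.11 and 0.05 and none called.

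Il18r1, a chain of the receptor for IL-18, was the type 1 gene nearest the threshold. It read 8.99, 8.80 and 10.29 with MLN and 10.67, 10.30 and 10.49 with PLN. There was no overlap, but in number 4 the gap was only -0.21 (difference -1.13 ± 0.22 SE; adjusted p = 0.0898). Without MLN array 4 the gene passed at -1.50 (adjusted p = 0.00132), and without number 4 at -1.59 (0.00476). Its co-receptor Il18rap differed by -0.30 (adjusted p = 0.829).

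Klrc1 encodes NKG2A, an inhibitory receptor of NK cells and activated CD8 T cells that pairs with CD94 (Klrd1). It read 8.72, 8.71 and 9.84 with MLN and 10.04, 10.06 and 10.55 with PLN. All MLN values lay below all PLN values, with the smallest gap in number 4. The difference was -1.13 ± 0.15 (SE; adjusted p = 0.00579), 2.18-fold lower, and the second probe set gave -0.92. The call was lost without MLN array 2 (adjusted p = 0.0598), MLN array 3 (0.0513), PLN array 2 (0.0622) or PLN array 3 (0.0633), without number 2 (0.112) or 3 (0.147), and with no variance trend (0.0549).

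Klrd1 read 10.46, 10.32 and 11.89 with MLN and 10.77, 10.78 and 11.85 with PLN. Its groups overlapped (difference -0.24 ± 0.15 SE; adjusted p = 0.910). Klrk1, the activating receptor NKG2D, differed by -0.51 ± 0.13 (SE; adjusted p = 0.292) with no overlap. Of 9 tested killer receptors 6 were lower and 3 higher, with Klrc1 called and a median of -0.04. Genes of the lytic granules did not share that direction: of 14 tested, 10 were higher and 4 lower, none was called and the median was 0.08. Perforin (Prf1) differed by -0.35 and granzyme C (Gzmc) by 0.28.

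The share of CD8 and CD4 transcripts is given beside these results, and its part in them was not tested. Cd8a read 11.78, 11.86 and 11.72 with MLN and 11.48, 11.57 and 11.40 with PLN. The MLN values were all higher, by 0.30 ± 0.085 (SE; adjusted p = 0.493). Cd4 differed by -0.09 (95% interval -0.28 to 0.10).

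Prnp and Mpp2 were the remaining called genes, and neither belonged to a list. Prnp, which encodes the cellular prion protein, read 9.05, 9.01 and 8.22 with MLN and 9.62, 9.68 and 9.05 with PLN. MLN was lower in each pair, and the groups met at 9.05. The difference was -0.69 ± 0.090 (SE; adjusted p = 0.00579), but the second probe set gave -0.09, and with the mean of both the adjusted p was 0.460 (difference -0.39). With the number as a random block it was 0.145. The call was also lost without MLN array 4 (0.0625), PLN array 3 (0.0633) or PLN array 4 (0.0554) and without number 2, 3 or 4 (0.074, 0.161 and 0.194).

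Mpp2, a membrane-associated guanylate kinase scaffold, read 6.55, 6.02 and 5.71 with MLN and 7.31, 7.19 and 7.30 with PLN. The groups did not overlap, and the MLN values were low. The difference was -1.17 ± 0.20 (SE; adjusted p = 0.0476). The call held in 6 of 23 alternatives, the fewest of the 11 genes. It was lost without any 1 array other than MLN array 2 (adjusted p = 0.0652 to 0.251) and without number 2, 3 or 4 (0.15, 0.336 and 0.438). It was also lost on intensities as deposited (0.0603), with a pseudocount of 64 (0.0513) and with no filter (0.182).

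Among genes short of the threshold, several encode surface molecules of T cells. Cd2, an adhesion and costimulation receptor, read 10.72, 10.69 and 10.62 with MLN and 11.31, 11.35 and 10.93 with PLN. The groups did not overlap (difference -0.52 ± 0.090 SE; adjusted p = 0.0536). Icos, a costimulatory receptor, read 10.82, 11.10 and 10.85 with MLN and 11.11, 11.58 and 11.38 with PLN. The highest MLN value, 11.10, was just below the lowest PLN value, 11.11 (difference -0.43 ± 0.083 SE; adjusted p = 0.0809). Cd2 passed without liver array 2 (adjusted p = 0.0340), and Icos without spleen array 3 or 4 (0.0465 and 0.0432). With the mean of all probe sets both passed (0.0466 and 0.0397).

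Xdh, the xanthine dehydrogenase that makes uric acid, was the nearest on the side higher in MLN. It read 8.87, 8.79 and 10.22 with MLN and 8.42, 8.17 and 9.38 with PLN. The gap was present in each pair, and array 4 of each group was the highest (difference 0.63 ± 0.11 SE; adjusted p = 0.0597). Without liver array 2 or MLN array 2 it passed (adjusted p = 0.0460 and 0.0484), as it did with median centring (0.0307).

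Genes that sense or degrade extracellular nucleotides were mostly higher with MLN, with none called. Of 10 tested, 8 were higher and 2 lower, with a median of 0.28; 4 were higher at an unadjusted p under 0.05, against 2.88% of all tested genes, and none lower. P2rx7, the ATP-gated channel that triggers death of T cells and is known to respond to retinoic acid in mouse T cells, read 7.4, 7.92 and 7.68 with MLN and 6.93, 6.67 and 6.53 with PLN. The groups did not overlap (difference 0.96 ± 0.23 SE; adjusted p = 0.259). P2rx4, a related channel, read 8.99, 8.81 and 8.82 against 8.53, 8.32 and 8.28, also with no overlap (difference 0.50 ± 0.11 SE; adjusted p = 0.213). Enpp4, an ecto-enzyme that cleaves nucleotides, differed by 0.68 ± 0.14 (SE; adjusted p = 0.144) with no overlap. P2rx4 passed with the mean of all its probe sets (difference 0.70; adjusted p = 0.0356) and Enpp4 with no variance trend (0.0342). The median of the list was above 0 in each number. As the list was chosen with earlier results of these data known, its counts do not test it.

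The S100, annexin and galectin genes, a list also chosen with earlier results known, leaned the other way. Of 17 tested, 12 were lower and 5 higher, with a median of -0.14; 5 were lower and 1 higher at an unadjusted p under 0.05, against 3.08% and 2.88% of all tested genes, and none was called. S100a4, a calcium-binding protein of memory T cells, read 9.71, 9.78 and 10.69 with MLN and 10.30, 10.73 and 11.15 with PLN. It was lower in each pair with overlapping groups (difference -0.67 ± 0.14 SE; adjusted p = 0.131). Cd44, an adhesion receptor of activated and memory T cells, read 10.37, 10.41 and 10.50 against 10.83, 10.77 and 10.90, with no overlap (difference -0.41 ± 0.13 SE; adjusted p = 0.576).

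Genes of the general cell state had small median differences. Of 37 cell cycle genes 26 were higher, with differences of -0.24 to 0.14, a median of 0.03 and no unadjusted p under 0.05. Glycolysis (21 tested genes) and the respiratory chain (25) had medians of -0.001 and -0.01. Interferon response genes were higher in 20 of 24, with a median of 0.09 and none called; within numbers 2, 3 and 4 the median was -0.02, 0.12 and 0.22. TGF-beta signalling genes were higher in 14 of 17, with a median of 0.11, none called and none at an unadjusted p under 0.05. In all, 43 lists, 3 of them with no tested gene, covered 473 different tested genes. They held 8 of the called genes in 6 lists, while 0.148% of all tested genes were called. The lists were chosen with earlier results of these data known, so this count is no result about them. Over all tested genes, 50.7% were higher and 49.3% lower.

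**Figure D3:**
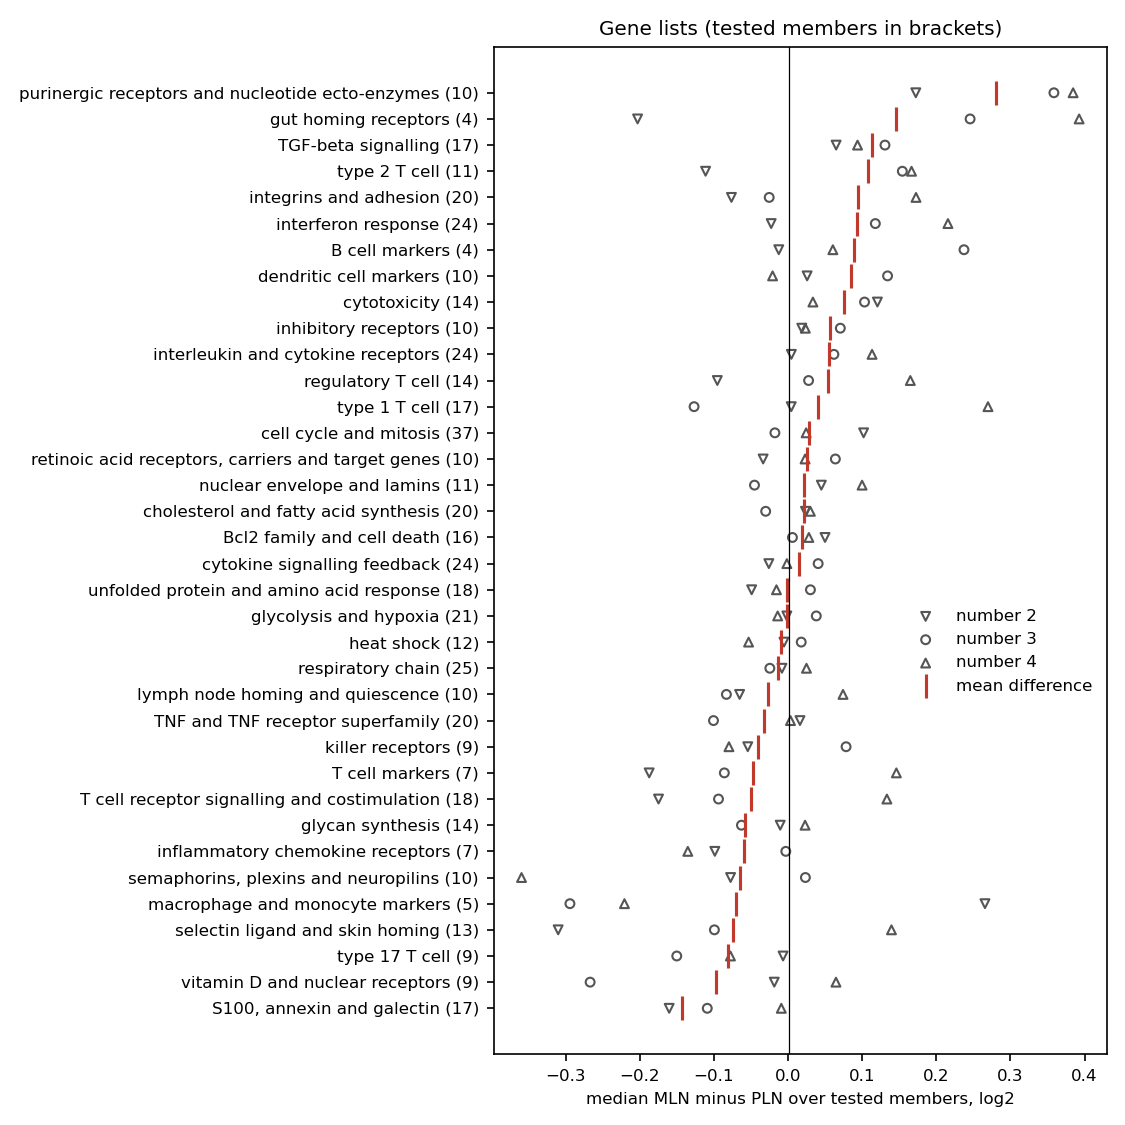
Median MLN minus PLN difference (log2, horizontal axis) over the tested members of each list with at least 4, within numbers 2, 3 and 4 (open symbols) and for the mean over the numbers (red ticks); the thin line is the median of all tested genes, 0.0017. The extreme medians are 0.28 for purinergic genes and -0.14 for S100, annexin and galectin genes.

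Which of the 2 cultures stood apart was read against the 5 liver and spleen arrays. These comparisons use the same MLN and PLN arrays and share the liver and spleen arrays, so their values are not independent of each other. Against the mean of liver and spleen, 243 genes (3.27%) passed for MLN, 126 higher (1.69%) and 117 lower (1.57%). For PLN 0 passed by limma, although 1008 of the 7436 tested genes were under 0.05 before adjustment, against 443 for MLN minus PLN. The lowest adjusted p was 0.0578, so the count of 0 does not show that PLN was like liver and spleen. The PLN count depends on single arrays: it was 62 without liver array 3, 19 without PLN array 3, 21 without spleen array 3, 6 without MLN array 3, 3 without MLN array 2, 2 without spleen array 4, and 101 and 1 without numbers 3 and 4. The MLN count fell to 113 without liver array 2, to 64, 87 and 67 without MLN arrays 2, 3 and 4, to 72 without spleen array 4, and to 62 and 27 without numbers 2 and 4.

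For 10 of the 11 genes MLN passed against liver and spleen, and Il17a was the exception. Lmna differed from liver and spleen by -2.18 with MLN and -0.20 with PLN. Sema4a gave -1.51 and -0.32 (adjusted p = 0.119 for PLN), Plxnc1 -1.15 and -0.02, and Klrc1 -1.31 and -0.18. For these genes the MLN difference passed and the PLN difference did not, and the test between them is the MLN minus PLN comparison itself. Sema4f gave -1.03 with MLN and 0.28 with PLN, Lztfl1 1.14 and -0.06, and Prnp -0.82 and -0.14.

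For Fut7, Mpp2 and Hic1 the MLN difference passed, and the PLN difference had the same sign without passing (adjusted p = 0.225, 0.275 and 0.308). Fut7 gave -1.52 with MLN and -0.46 with PLN, Mpp2 -1.66 and -0.48, and Hic1 1.13 and 0.31. Il17a gave -0.26 with MLN (adjusted p = 0.267) and 0.78 with PLN (adjusted p = 0.0578). Within number 3, Il17a read 10.13 with MLN, 10.19 with liver, 11.23 with PLN and 11.23 with spleen dendritic cells. In number 4 spleen, at 9.25, lay between MLN at 8.66 and PLN at 9.83, and number 2 has no spleen array.

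**Figure D4:**
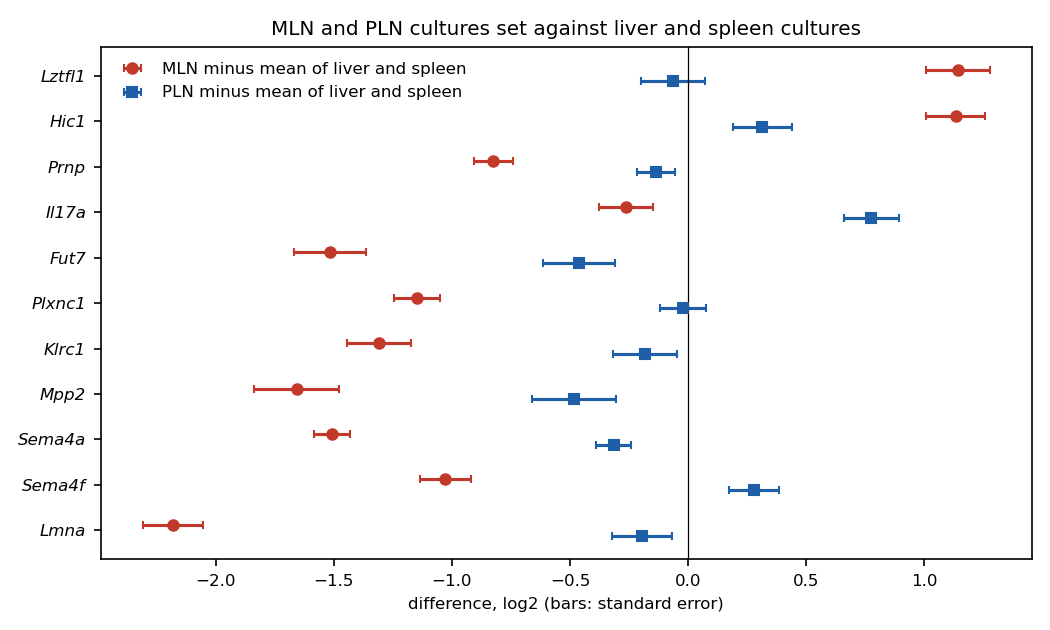
Differences (log2, horizontal axis, bars 1 SE) of MLN cultures (red circles) and PLN cultures (blue squares) from the mean of liver and spleen cultures for the 11 called genes, ordered by their MLN minus PLN difference. The PLN values lie between -0.48 and 0.78 and the MLN values between -2.18 and 1.14.

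Lmna and Sema4a are next to each other among the protein-coding genes of chromosome 3 in RefSeq, and both were lower with MLN. Of the other measured genes up to 5 places away on either side, differences ran from -0.10 to 0.27. Klrc1 lies in a cluster of killer receptor genes on chromosome 6, whose other tested members differed in both directions, none called: Klrk1 by -0.51, Klrd1 by -0.24, Klra7 by -0.04 and Klra5 by 0.76 (adjusted p = 0.493). On chromosome 9, Lztfl1 is followed by Ccr9, whose differences within the numbers were 0.78, 0.09 and 2.20. The other Ccr9 probe sets gave 0.79, -0.71 and 1.97, and -0.21, -0.03 and 0.87, so neither was higher in all 3 numbers. Cxcr6, the receptor for CXCL16 in the same cluster, differed by 0.11.

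**Figure D5:**
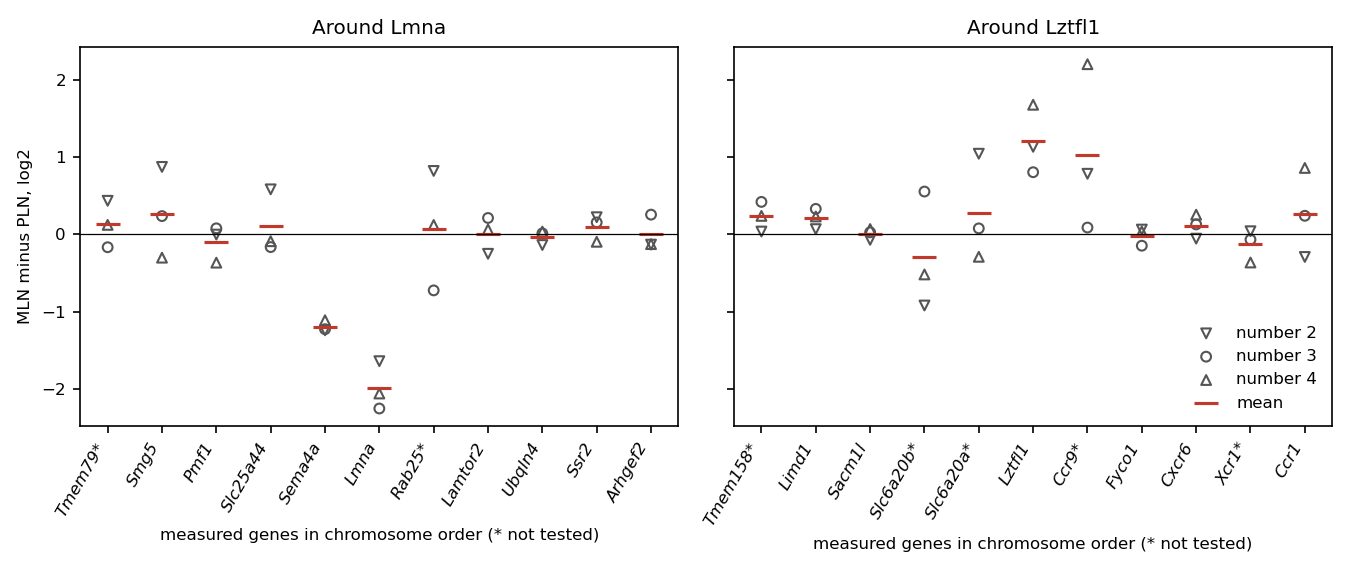
MLN minus PLN difference (log2, vertical axis) within numbers 2, 3 and 4 (open symbols) and their mean (red ticks) for the measured genes up to 5 places to either side of Lmna and of Lztfl1 in chromosome order; asterisks mark genes below the tested range. Lmna and Sema4a stand below the other genes of the left panel, and Lztfl1 and Ccr9 have the highest means of the right panel.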

How the data were processed

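RNA of T cells cultured with dendritic cells was hybridized to 11 arrays, assigned to organ and number by their labels. The deposited table gives 1 linear intensity per probe set; the authors' software is not given in the sources used here. After trimming 2% at each end every array had a mean of 500.2. Of 22690 probe sets, 64 controls were left out; the platform annotation gave 1 symbol for 20380, several for 691 and none for 1555, and only the first were used, 20351 with RefSeq symbols. Values were taken as log2(intensity + 16) and quantile normalized, and the probe set with the highest mean stood for each of 12393 genes (4956 had several). Differences on this scale understate changes of dim genes. The fit used limma 3.58.1 in R 4.3.3 (lmFit, eBayes with trend) on all 11 arrays, with 4 organ means and the replicate number as a block (5 residual degrees of freedom). It was tested on simulated data.

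The numbers pair the arrays: after removal of organ means, r across genes was 0.412 to 0.731 between arrays of different organs that share a number. Between arrays of different organs and numbers it was -0.709 to 0.0842. The deviations within an organ sum to 0, so this lower range follows in part from the centring and is no separate evidence of pairing. Named genes were those called, filled to 10 in each direction by smallest p, up to 4 of smallest p per list, and a chosen group of homing, cytokine and lineage genes. The members and lists were chosen with earlier results of these data known. Ncr1, Klra8, Stra6, Sema7a, Sema4d, Nrp1, Lmnb1, Emd, Rora, Ahr, Klra5, Klra7 and Cxcr6 lie outside that rule. They were named after their values were seen. Alternatives concerned the block, scaling, pseudocount, filter, probe sets, variance trend and single arrays or numbers.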

Additional observations from a re-analysis of the deposited data

How the results depend on the processing

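No result reversed in any of 25 alternatives, and all 11 called genes kept their sign in each one that tested them. Without the replicate block, 1 gene was called for MLN minus PLN (0 higher, 1 lower) against 11 with it (2 higher, 9 lower), and 9 against 243 for MLN minus liver and spleen. With the number as a random block the last count was 110, and that for PLN minus liver and spleen 2. Genes called higher in MLN were 4 with the 6 MLN and PLN arrays alone or with the mean of all probe sets, 1 with a pseudocount of 1 or no filter on low values, and 0 in the upper 40% of genes, where 7 were called in all. For PLN minus liver and spleen, the count was 6 on intensities as deposited and 8 with median centring. For MLN minus liver and spleen it was 127 with no filter, where more genes are tested, and 95 with no variance trend. Leaving out 1 array or 1 number gave 5 to 12 calls for MLN minus PLN (0 to 3 higher, 5 to 10 lower), 27 to 262 for MLN minus liver and spleen and 0 to 101 for PLN minus liver and spleen. The count for MLN minus PLN was lowest without number 2 (5), and 6 without number 4 or PLN array 3. The cause of these moves was not tested. Over named genes and alternatives, 71 calls were lost and 13 gained, and 24 uncalled genes changed sign somewhere; of 998 list medians 81 moved by more than the spread between the numbers. Genes of low intensity have the least precise values, among them Fut7, Mpp2 and Ccr9.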

Other observations

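Of the 15 tested genes that differed by more than 1 on the log2 scale, 9 were called and 6 were not. Besides Itga4 and Il18r1, the uncalled ones were Endou, Dglucy, Ly6i and Gpaa1, named here after their values were seen. Endou, an endoribonuclease that cleaves at uridines, read 6.92, 6.00 and 6.40 in MLN cultures 2, 3 and 4 and 8.32, 7.43 and 8.44 in PLN cultures, with no overlap (difference -1.62; limma's adjusted p = 0.0809). Dglucy, which encodes D-glutamate cyclase, read 5.67, 7.25 and 7.07 against 7.995, 8.32 and 8.16, also with no overlap (difference -1.49; adjusted p = 0.0581). Ly6i, of the Ly6 family of surface proteins, read 5.30, 7.36 and 5.05 against 7.72, 7.81 and 7.48, and Gpaa1, of the machinery that adds GPI anchors, 7.28, 7.62 and 10.03 against 9.97, 7.75 and 10.46. Each was lower with MLN in all 3 numbers, but by unequal amounts, and their adjusted p-values were 0.756 and 0.847.

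Genes that build glycans differed in both directions. St6gal1, which adds the sialic acid bound by CD22, differed by -0.49 (adjusted p = 0.422), Galnt3, which starts mucin-type glycans, by -0.39 (0.664) and St8sia4, a polysialyltransferase, by -0.27 (0.811). Ext2, which extends heparan sulfate, differed by 0.31 (0.818). Of 14 tested genes of the list 8 were lower and 6 higher, with a median of -0.06 and none called.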
